A study of Arabidopsis thaliana with 30 samples.

Results

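The MAPKKK17/18 to MKK3 cascade is described here through 10 genes, which were taken by locus ID from the count table of the study: the mitogen-activated protein kinase kinase kinase (MAPKKK) genes MAPKKK15 (AT5G55090), MAPKKK16 (AT4G26890), MAPKKK17 (AT2G32510), MAPKKK18 (AT1G05100), MAPKKK19 (AT5G67080) and MAPKKK20 (AT3G50310), the kinase kinase gene MKK3 (AT5G40440), and the kinase (MPK) genes MPK1 (AT1G10210), MPK2 (AT1G59580) and MPK7 (AT2G18170). They make up 10 of the 32833 genes in the table. The rule that takes them uses no expression value, but the set was chosen with earlier results of these data known. Arabidopsis thaliana seedlings, 5 days old and grown on plates, were moved to liquid MS medium without abscisic acid (ABA; mock) or with 50 μM ABA for 3 h, and poly(A) RNA of whole seedlings was sequenced. The 5 genotypes were WT (Col-0), the T-DNA insertion mutant dxo1, dxo1/cDXO1 and dxo1/NTE (dxo1 plants that also carry the C-terminal or the N-terminal part of DXO1 under the DXO1 promoter, labelled DXO1-C/dxo1 and DXO1-N/dxo1) and rnmt1-3, a weak allele labelled rnmt1. Each genotype had 3 mock and 3 ABA libraries, which gives 10 groups and 30 libraries. How many independent transgenic lines were pooled or used is not given in the sources used here.

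MAP kinase cascades pass a signal by phosphorylation from a MAPKKK to an MKK and from there to an MPK. MAPKKK13 to MAPKKK20 form a plant clade of MEKK-like kinases, several of which act upstream of MKK3, and MKK3 activates the group C kinases MPK1, MPK2, MPK7 and MPK14. MAPKKK17 and MAPKKK18 are close paralogs whose transcripts are made in response to ABA, and the clade A protein phosphatases (PP2Cs) that hold back ABA signalling, such as ABI1, also bind MAPKKK18. DXO1 removes non-canonical caps from RNA, and its plant-specific N-terminal extension (NTE) binds and activates RNMT1, the enzyme that methylates the m7G cap; the comparisons ask how the cascade transcripts stood in plants with altered capping, with and without ABA.

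Total counts per library ran from 17961410 to 23249299. DXO1 was read at 40.9 to 49.7 CPM (counts scaled to library size) in WT mock and 19.1 to 23.02 in dxo1 mock, and at 211 to 251 in the mock libraries of dxo1/cDXO1 and dxo1/NTE; RNMT1 was lower in rnmt1-3 (14.05 to 15.3 CPM) than in WT (17.7 to 22.2 CPM) under mock without overlap, whereas after ABA rnmt1-3 (15.6 to 16.8 CPM) and WT (15.9 to 18.5 CPM) overlapped. RNMT1 was also below WT in dxo1/cDXO1 mock (16.1 to 17.3 CPM) without overlap. In dxo1/NTE after ABA it ran from 20.3 to 60.3 CPM, above every WT ABA library and widely spread. WT mock replicate 1 stood apart from the other WT mock libraries. Summed levels of 8 hypoxia genes were 605 CPM in replicate 1 and 1859 and 2785 CPM in replicates 2 and 3. Fits without replicate 1 therefore rest on the WT mock libraries with the higher hypoxia sums. The edgeR common dispersion of WT mock was 0.04 with replicate 1 and 0.00491 without it, against 0.00386 to 0.0102 in the other 9 groups, so tests that use WT mock had the widest error, and the calls and values that changed most without that library are given below. Summed levels of 3 shoot genes were 15230 to 20620 CPM and those of 3 root genes 23.8 to 49.8 CPM over all libraries, while 3 seed storage genes summed to at most 2.89 CPM. In whole seedlings a lower level can come from fewer cells of a type or from less RNA per cell, which cannot be told apart.

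The 6 MAPKKK genes are each annotated with a single exon, MKK3 with 9 exons, MPK1 with 2, and MPK2 and MPK7 with 3 in the longest transcript (RefSeq on TAIR10.1). MAPKKK17 (AT2G32510) lies on the minus strand of chromosome 2 from 13798561 to 13800099 and encodes 372 residues, and MAPKKK18 (AT1G05100) lies on the plus strand of chromosome 1 from 1469541 to 1470881 and encodes 339 residues. Their transcripts are 76.7% identical, with a longest shared run of 32 bases. The other close pairs are MPK1 and MPK2 (79.7%, 56 bases), MAPKKK15 and MAPKKK16 (76.6%, 28 bases) and MAPKKK19 and MAPKKK20 (76.0%, 26 bases), and since the handling of multi-mapping reads is not stated, reads from the shared runs could have been left out or split. MKK3 overlaps AT5G40450 on the opposite strand by 178 bases and MAPKKK19 overlaps AT5G67090 by 41 bases. AT5G40450 held 223798 reads over all libraries together, whereas MKK3 held 97 to 206 reads a library. The strand setting of the counting is not stated, so antisense reads in these stretches cannot be told from sense reads.

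The windows of MAPKKK17 and MAPKKK18 are shown because the ABA response element (ABRE), the site of the ABF/AREB bZIP factors, has the core ACGTG, and those of MAPKKK15 and MAPKKK19 are set beside them for comparison. The windows of MAPKKK16 and MPK7, which rose with ABA in every genotype and hold no match, are not printed. Each sequence runs 5′ to 3′ on the strand of the gene from 250 bases before to 30 bases after the RefSeq start (TAIR10.1), and capitals mark ACGTG on either strand. MAPKKK18 is at chr1:1469291-1469570, MAPKKK17 at chr2:13800070-13800349 (minus strand), MAPKKK15, which also rose but holds no match, at chr5:22358384-22358663 (minus strand), and MAPKKK19, which holds matches and did not rise, at chr5:26772394-26772673.
MAPKKK18: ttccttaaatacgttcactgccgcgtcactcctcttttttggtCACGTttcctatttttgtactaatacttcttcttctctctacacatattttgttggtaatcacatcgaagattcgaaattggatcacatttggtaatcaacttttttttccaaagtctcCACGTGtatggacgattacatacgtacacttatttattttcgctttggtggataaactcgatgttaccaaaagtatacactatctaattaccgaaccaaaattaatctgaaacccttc
MAPKKK17: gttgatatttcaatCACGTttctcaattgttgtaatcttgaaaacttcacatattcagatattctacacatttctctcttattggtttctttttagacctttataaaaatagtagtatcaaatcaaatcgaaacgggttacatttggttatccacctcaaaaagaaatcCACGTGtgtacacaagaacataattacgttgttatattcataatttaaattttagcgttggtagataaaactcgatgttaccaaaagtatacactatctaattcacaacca
MAPKKK15: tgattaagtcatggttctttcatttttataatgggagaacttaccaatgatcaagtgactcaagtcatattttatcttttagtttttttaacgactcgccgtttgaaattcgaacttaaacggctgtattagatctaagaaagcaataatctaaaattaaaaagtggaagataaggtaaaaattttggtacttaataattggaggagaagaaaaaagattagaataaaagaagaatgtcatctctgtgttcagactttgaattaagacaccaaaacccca
MAPKKK19: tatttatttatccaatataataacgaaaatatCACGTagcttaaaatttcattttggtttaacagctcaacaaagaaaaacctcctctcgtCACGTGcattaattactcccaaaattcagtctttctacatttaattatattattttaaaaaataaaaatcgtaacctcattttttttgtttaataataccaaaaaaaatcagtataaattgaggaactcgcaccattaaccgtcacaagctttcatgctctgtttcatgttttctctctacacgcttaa

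ACGTG was searched on both strands in 300 bases, from 250 before to 50 after the start, and the palindrome CACGTG counts as 2 overlapping matches. MAPKKK17 and MAPKKK18 each held 3 matches, first bases at -236, -81 and -80 in MAPKKK17 and at -207, -88 and -87 in MAPKKK18, counted from the start. MAPKKK19 and MPK2 also held 3, MAPKKK20 held 2 and MKK3 held 1, and none was found in MAPKKK15, MAPKKK16, MPK1 or MPK7. Of 27443 promoters of the same length 26.7% held at least 1 match and 3.63% at least 3. The longer forms ACGTGG or ACGTGT were found in 18.9% of all promoters and, among the 10 cascade genes, in MAPKKK17 and MAPKKK18. These 2 windows also share a run of 36 bases across the start, from -14 to 22 in MAPKKK17 and from -35 to 1 in MAPKKK18, whereas the other 44 pairs of cascade promoters share at most 7 to 19 bases (median 10):
Shared run: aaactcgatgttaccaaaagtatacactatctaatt
A 20-base part of this run occurred in 2 of the 27443 promoters, those of MAPKKK17 and MAPKKK18 from which the run was taken, and in no other. A match is a description of the letters and not of binding.

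**Figure D1:**
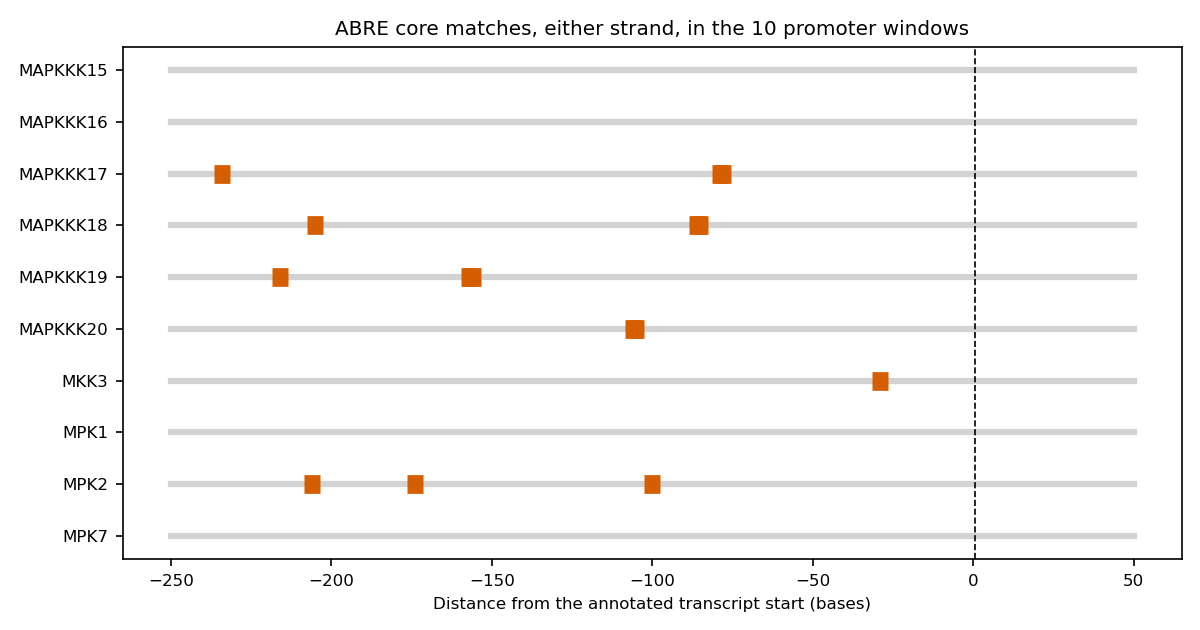
Positions of ACGTG on either strand (orange blocks) in the promoter windows of the 10 cascade genes, against the distance in bases from the annotated transcript start (dashed line); grey bars span the 300 bases searched. MAPKKK17 and MAPKKK18 each hold 3 matches, of which 2 overlap, and MAPKKK15, MAPKKK16, MPK1 and MPK7 hold none.

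Levels between genes were compared as CPM per kilobase of gene length, as means of 3 libraries. In WT mock the MPK genes led, with MPK2 at 23.9 and MPK7 at 11.9 CPM per kb, followed by MPK1 at 3.94 and MKK3 at 2.92. All 6 MAPKKK genes stood below them, between 1.95 (MAPKKK17) and 0.322 (MAPKKK19). After ABA the order in WT was led by MAPKKK18 at 33.9 CPM per kb, ahead of MPK7 at 28.3, MAPKKK17 at 23.5 and MPK2 at 22.5, with MKK3 at 4.29. In the other genotypes MPK7 led after ABA (25.7 in dxo1/NTE, 22.98 in rnmt1-3, 19.9 in dxo1 and 19.7 in dxo1/cDXO1), then MPK2, and MAPKKK18 followed at 18.1, 19.98, 13.2 and 15.1 CPM per kb in that order. MKK3, the shared middle step, was read at a fraction of the level of its most abundant partners in every group. Neighbours in these orders were not tested against each other.

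**Figure D2:**
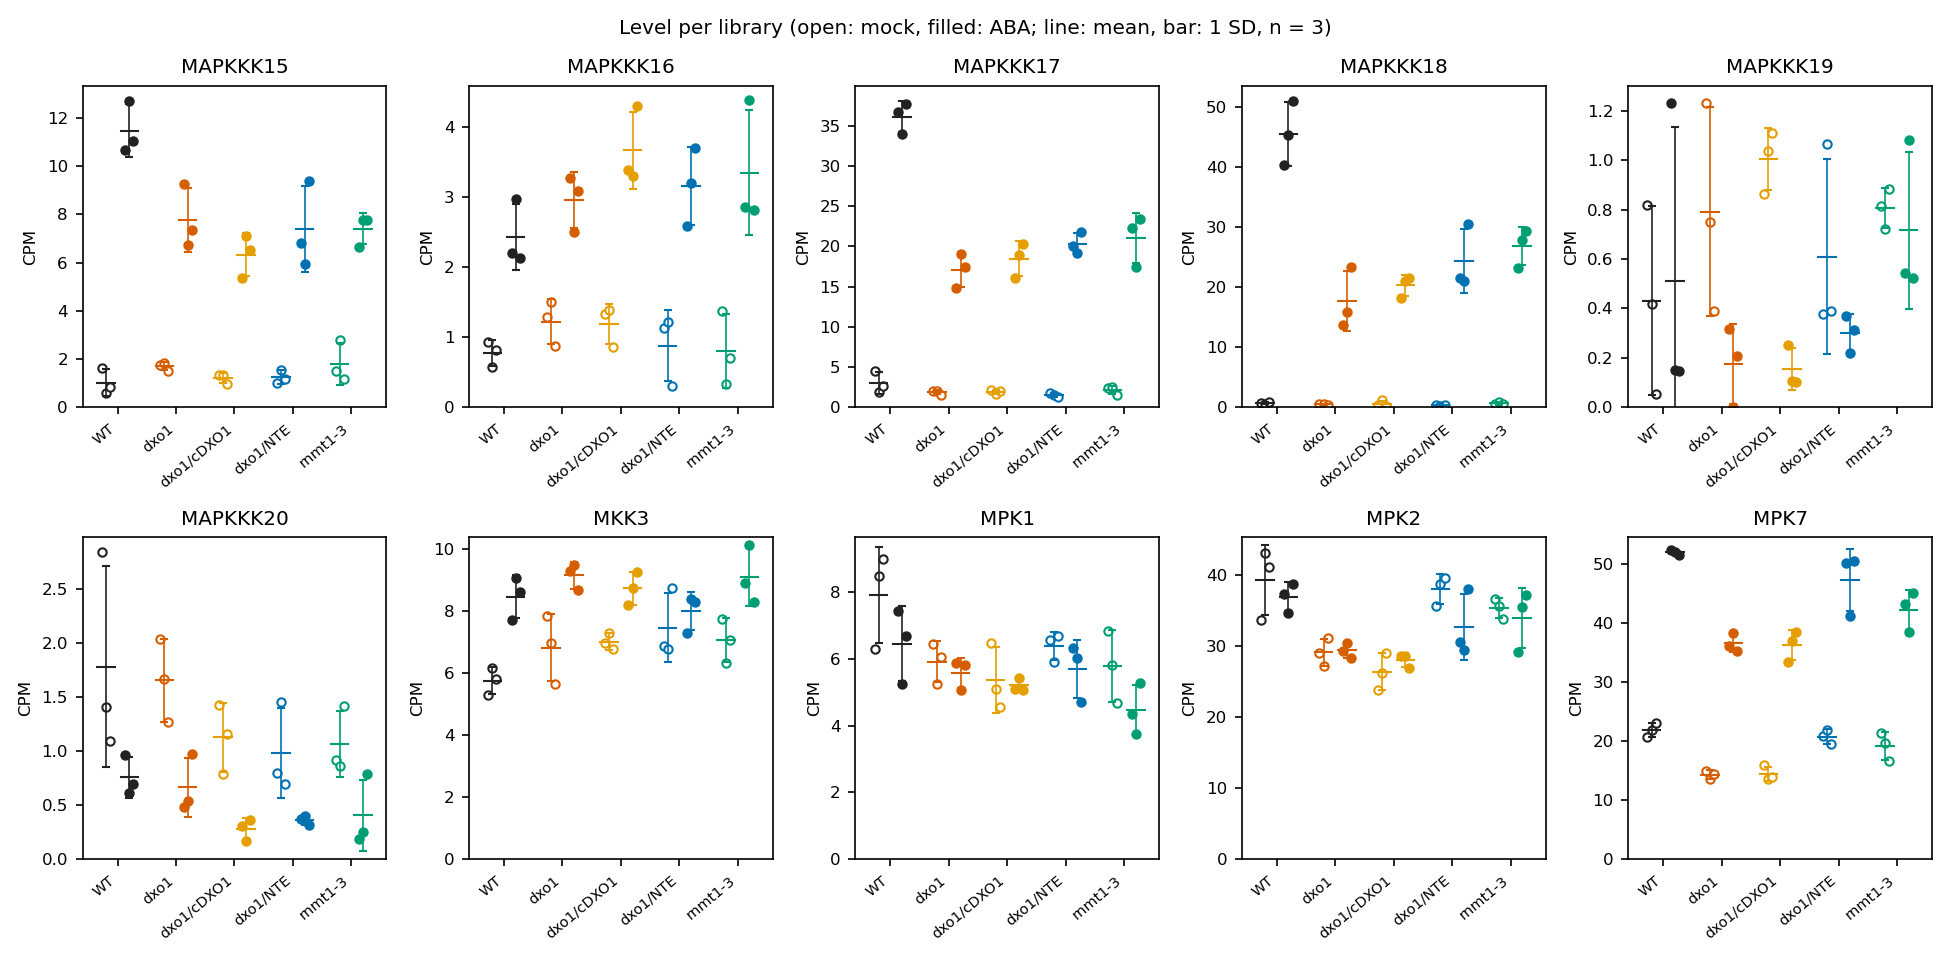
Level of each cascade gene in CPM (y axis, from 0) in the 5 genotypes (x axis), for each mock library (open circles) and each ABA library (filled circles), with the mean (line) and 1 SD (bar) of 3 libraries. The WT libraries after ABA lie above all other ABA libraries for MAPKKK15, MAPKKK17 and MAPKKK18.

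ABA raised MAPKKK18 from near the detection limit. In WT mock its 3 libraries stood at 0.711, 0.469 and 0.823 CPM (13, 9 and 15 reads), and after ABA at 40.3, 45.3 and 50.9 CPM. The mutant libraries started as low, between 3 and 23 reads under mock, and reached lower levels after ABA: 13.8, 15.9 and 23.4 CPM in dxo1, 18.2, 21.02 and 21.5 CPM for dxo1/cDXO1, 21.6, 20.9 and 30.4 CPM for dxo1/NTE, and 23.2, 27.9 and 29.3 CPM for rnmt1-3. Mock and ABA libraries did not overlap in any genotype. The log2 fold change was 6.11 in WT (SE 0.204, edgeR adjusted p = 3.79e-07) and 6.15 in dxo1/NTE (SE 0.266), against 5.40 in rnmt1-3 (SE 0.191), 5.23 in dxo1 (SE 0.268) and 5.18 in dxo1/cDXO1 (SE 0.291), each called at an adjusted p under 0.05. With so few mock reads these ratios rest on the mock count: dxo1/cDXO1 mock replicate 2 alone held 23 reads against 7 and 3, and without it the log2 fold change there was 6.28.

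MAPKKK17 started higher and ended nearly as high. WT mock libraries stood at 4.49, 1.93 and 2.58 CPM and WT ABA libraries at 36.7, 33.95 and 37.8 CPM. After ABA the 3 libraries were at 14.9, 19.1 and 17.4 in dxo1, 16.1, 19.0 and 20.3 in dxo1/cDXO1, 20.02, 19.1 and 21.8 in dxo1/NTE, and 22.3, 17.5 and 23.4 in rnmt1-3. The mock libraries of these 4 genotypes lay between 1.29 and 2.45 CPM, so the ranges of mock and ABA were far apart. ABA against mock gave a log2 fold change of 3.62 in WT (SE 0.258, edgeR adjusted p = 2.88e-05) and of 3.75 in dxo1/NTE, 3.32 in rnmt1-3, 3.28 in dxo1/cDXO1 and 3.20 in dxo1. The highest of all mock libraries was WT mock replicate 1, the library that stood apart, and without it the WT value was 4.03.

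MAPKKK15 and MAPKKK16, the other close pair of the clade, rose with ABA as well. MAPKKK15 went from 1.64, 0.573 and 0.823 CPM to 10.7, 12.7 and 11.0 CPM in WT, a log2 fold change of 3.52 (SE 0.317, edgeR adjusted p = 0.000108), and of 4.06 without WT mock replicate 1, which held its highest level among the WT mock libraries. In the other genotypes its log2 fold change was 2.196 (dxo1), 2.39 (dxo1/cDXO1), 2.58 (dxo1/NTE) and 2.05 (rnmt1-3), all called. MAPKKK16 rose from 0.93, 0.573 and 0.823 CPM to 2.197, 2.98 and 2.13 CPM in WT, and its log2 fold change ran from 1.28 in dxo1 through 1.62 in dxo1/cDXO1, 1.67 in WT and 1.86 in dxo1/NTE to 2.08 in rnmt1-3. For neither gene did a mock library reach the level of an ABA library of its genotype.

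MAPKKK19 and MAPKKK20, another close pair, were lower after ABA where they were called. MAPKKK20, also described as a kinase of ABA responses, stood at 2.84, 1.41 and 1.10 CPM in WT mock and at 0.964, 0.605 and 0.693 after ABA. The ranges did not overlap, but the WT change missed the threshold (log2 fold change -1.21, edgeR adjusted p = 0.102). It passed in dxo1 (-1.31, adjusted p = 0.0173), dxo1/cDXO1 (-2.01, adjusted p = 0.00482) and dxo1/NTE (-1.42, adjusted p = 0.0323), and at the edge in rnmt1-3 (-1.42, adjusted p = 0.05, below the threshold before rounding). Except in dxo1/cDXO1 these calls were lost in 3 to 5 of the 6 fits that left out a library. MAPKKK19 held 0 to 26 reads a library and was tested in 2 of the 5 ABA contrasts: it fell in dxo1/cDXO1 from 0.866, 1.04 and 1.11 to 0.253, 0.107 and 0.101 CPM (log2 fold change -2.65, edgeR adjusted p = 0.0012), and in rnmt1-3 mock and ABA libraries overlapped.

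MKK3, the kinase kinase of the cascade, had smaller differences. Its libraries ran from 5.31 to 6.15 CPM in WT mock and from 7.72 to 9.08 after ABA, which do not overlap, and the log2 fold change was 0.58 (SE 0.159, edgeR adjusted p = 0.0371). In dxo1 it was 0.43 (adjusted p = 0.0406), in dxo1/cDXO1 0.32 (adjusted p = 0.105), in dxo1/NTE 0.10 (adjusted p = 0.663) and in rnmt1-3 0.39 (adjusted p = 0.056). Both calls, in WT and dxo1, were lost in 5 of the 6 fits that left out a library.

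Of the 3 group C kinases among the cascade genes, MPK7 rose with ABA and MPK1 and MPK2 did not. MPK7 stood at 20.7, 21.9 and 23.1 CPM in WT mock and at 52.5, 52.2 and 51.7 CPM after ABA. Its log2 fold change was 1.27 in WT (SE 0.0979, edgeR adjusted p = 4.39e-05), with 1.16 in rnmt1-3, 1.20 in dxo1/NTE, 1.34 in dxo1/cDXO1 and 1.36 in dxo1, with no overlap of mock and ABA libraries. MPK1 (3.74 to 8.99 CPM over all libraries) and MPK2 (23.8 to 43.0 CPM) were not called in any of the 5 contrasts. Their largest absolute log2 fold changes with ABA were -0.36 for MPK1 in rnmt1-3 (95% confidence interval -0.771 to 0.0504) and -0.21 for MPK2 in dxo1/NTE (-0.434 to 0.00826).

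Counted together, 6 of 9 tested cascade genes were higher with ABA in WT, where 10% of all tested genes were, and none was lower, where 6.47% were. In dxo1 6 of 9 were higher and 1 lower (14.1% and 11.8% of all tested genes), in dxo1/cDXO1 5 and 2 of 10 (13.6% and 10.9%), in dxo1/NTE 5 and 1 of 9 (15.4% and 13.4%) and in rnmt1-3 5 and 1 of 10 (14.7% and 11.4%). The 5 genes MAPKKK15, MAPKKK16, MAPKKK17, MAPKKK18 and MPK7 were higher in each of the 5 genotypes, and these 25 calls held in every fit that left out a library and in every other setting run. Beside these changes, 6 of 8 hypoxia genes and 3 of 4 guard cell genes were lower with ABA in WT; their summed levels ran from 605 to 2785 CPM (mock) and 411 to 1078 CPM (ABA) for the hypoxia list, with the lowest mock sum in replicate 1, and from 42.6 to 64.7 and 33.2 to 39.6 CPM for the guard cell list. No gene of either list was at 0, and their part in the results was not tested.

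**Figure D3:**
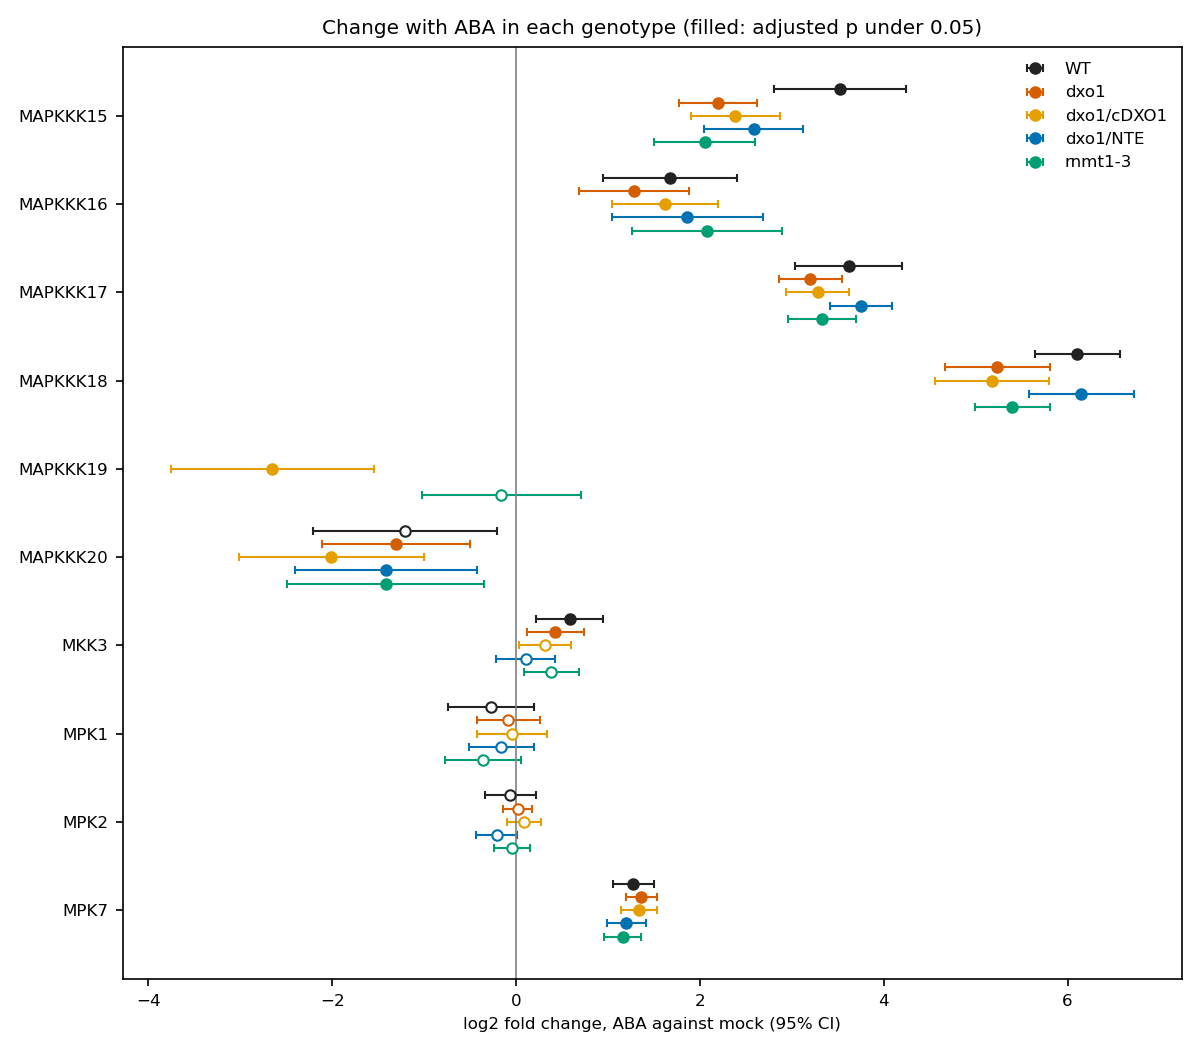
Log2 fold change of each cascade gene between ABA and mock (x axis) with its 95% confidence interval, by genotype (colour); filled points passed an adjusted p of 0.05 in edgeR and genes that did not pass the filter on low counts in a contrast have no point. MAPKKK18 lies furthest right, at 5.18 to 6.15, and MPK1 and MPK2 lie around 0.

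After ABA MAPKKK15, MAPKKK17 and MAPKKK18 stood lower in the other genotypes than in WT, while MAPKKK16, which was also induced, did not. The 4 comparisons share the same 3 WT libraries, so they are not independent of each other and are given side by side. For MAPKKK18 the WT libraries (40.3 to 50.9 CPM) lay above every library of the other genotypes (13.8 to 30.4 CPM). Against WT, dxo1 had a log2 fold change of -1.36 (SE 0.155, 95% confidence interval -1.69 to -1.02, edgeR adjusted p = 1.73e-05), which is 39.0% of the WT level. It was -1.16 in dxo1/cDXO1 (SE 0.0989, adjusted p = 8.23e-07, 44.9% of WT), -0.91 in dxo1/NTE (SE 0.135, adjusted p = 0.00144, 53.3%) and -0.76 in rnmt1-3 (SE 0.105, adjusted p = 0.000104, 59.1%).

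MAPKKK17 gave the same order of genotypes. Its WT libraries (33.95 to 37.8 CPM) again lay above all others (14.9 to 23.4 CPM). Relative to WT the log2 fold change came to -1.07 in dxo1 (SE 0.0977, edgeR adjusted p = 2.64e-06, 47.5% of the WT level), -0.96 in dxo1/cDXO1 (SE 0.095, adjusted p = 3.27e-06, 51.5%), -0.83 in dxo1/NTE (SE 0.0871, adjusted p = 9.88e-05, 56.1%) and -0.77 in rnmt1-3 (SE 0.104, adjusted p = 8.55e-05, 58.5%). For both genes the group means therefore descend from WT through rnmt1-3, dxo1/NTE and dxo1/cDXO1 to dxo1. Below WT, neighbours in this order overlapped in their libraries for both genes. Of the steps between neighbours, only that from WT to rnmt1-3 exceeded the spread. Genotypes further apart did not always overlap: for MAPKKK18 rnmt1-3 (23.2 to 29.3 CPM) lay above dxo1/cDXO1 (18.2 to 21.5 CPM). A test of rnmt1-3 against dxo1 or dxo1/cDXO1 was not run. All 8 calls against WT held when any library was left out.

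MAPKKK15 was also lower than in WT, where it stood at 10.7, 12.7 and 11.0 CPM: it reached 9.26, 6.72 and 7.34 CPM in dxo1, 5.36, 7.10 and 6.54 in dxo1/cDXO1, 6.81, 5.96 and 9.39 in dxo1/NTE, and 6.66, 7.78 and 7.78 in rnmt1-3. None of these libraries reached the lowest WT library. These log2 fold changes were -0.85 in dxo1/cDXO1 (edgeR adjusted p = 0.000307), -0.64 in dxo1/NTE (0.0353), -0.63 in rnmt1-3 (0.00234) and -0.56 in dxo1 (0.00722). The dxo1/NTE call was lost in 4 of the 6 fits that left out a library. Its close paralog MAPKKK16 was not lower in any genotype: it was called higher in dxo1/cDXO1 (3.39, 3.31 and 4.31 against 2.197, 2.98 and 2.13 CPM, log2 fold change 0.60, edgeR adjusted p = 0.0463), a call lost in 5 of 6 such fits. MAPKKK20 was called lower in dxo1/cDXO1 (log2 fold change -1.42, adjusted p = 0.0275), from 3, 6 and 7 reads against 12, 14 and 18 in WT, and this was lost in 4 of 6.

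For the MPK genes the calls against WT after ABA were not shared by all genotypes, and rnmt1-3 and dxo1/NTE were not tested against each other. MPK7 reached 36.1, 38.4 and 35.4 CPM in dxo1 and 33.5, 37.1 and 38.5 CPM in dxo1/cDXO1 after ABA, against 51.7 to 52.5 CPM in WT. The log2 fold change was -0.51 in each (SE 0.0678 and 0.0726, edgeR adjusted p = 6.64e-05 and 7.85e-05). In rnmt1-3 it was -0.29 (43.3, 38.6 and 45.1 CPM, adjusted p = 0.00814), a call lost without rnmt1-3 ABA replicate 2 (adjusted p = 0.0504). In dxo1/NTE, at 50.2, 41.3 and 50.5 CPM, all libraries lay below the lowest WT library, but the difference missed the threshold (log2 fold change -0.14, 95% confidence interval -0.33 to 0.0485, adjusted p = 0.37). MPK2 was lower in dxo1 (28.3 to 30.4 CPM) and dxo1/cDXO1 (26.9 to 28.5 CPM) than in WT (34.7 to 38.7 CPM), with log2 fold changes of -0.33 (edgeR adjusted p = 0.00381) and -0.39 (adjusted p = 0.00103) and no overlap. In dxo1/NTE MPK2 gave -0.18 (95% confidence interval -0.401 to 0.0406). MPK1 was called lower in rnmt1-3 only (log2 fold change -0.53, adjusted p = 0.0417), where its libraries (3.74 to 5.27 CPM) overlapped those of WT (5.25 to 7.45 CPM) and the call was lost in 4 of 6 fits; whether rnmt1-3 differs from the other genotypes here was not tested. MKK3 was not called in any genotype after ABA (8.47 ± 0.694 CPM in WT and 8.00 to 9.16 CPM as means of the others).

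**Figure D4:**
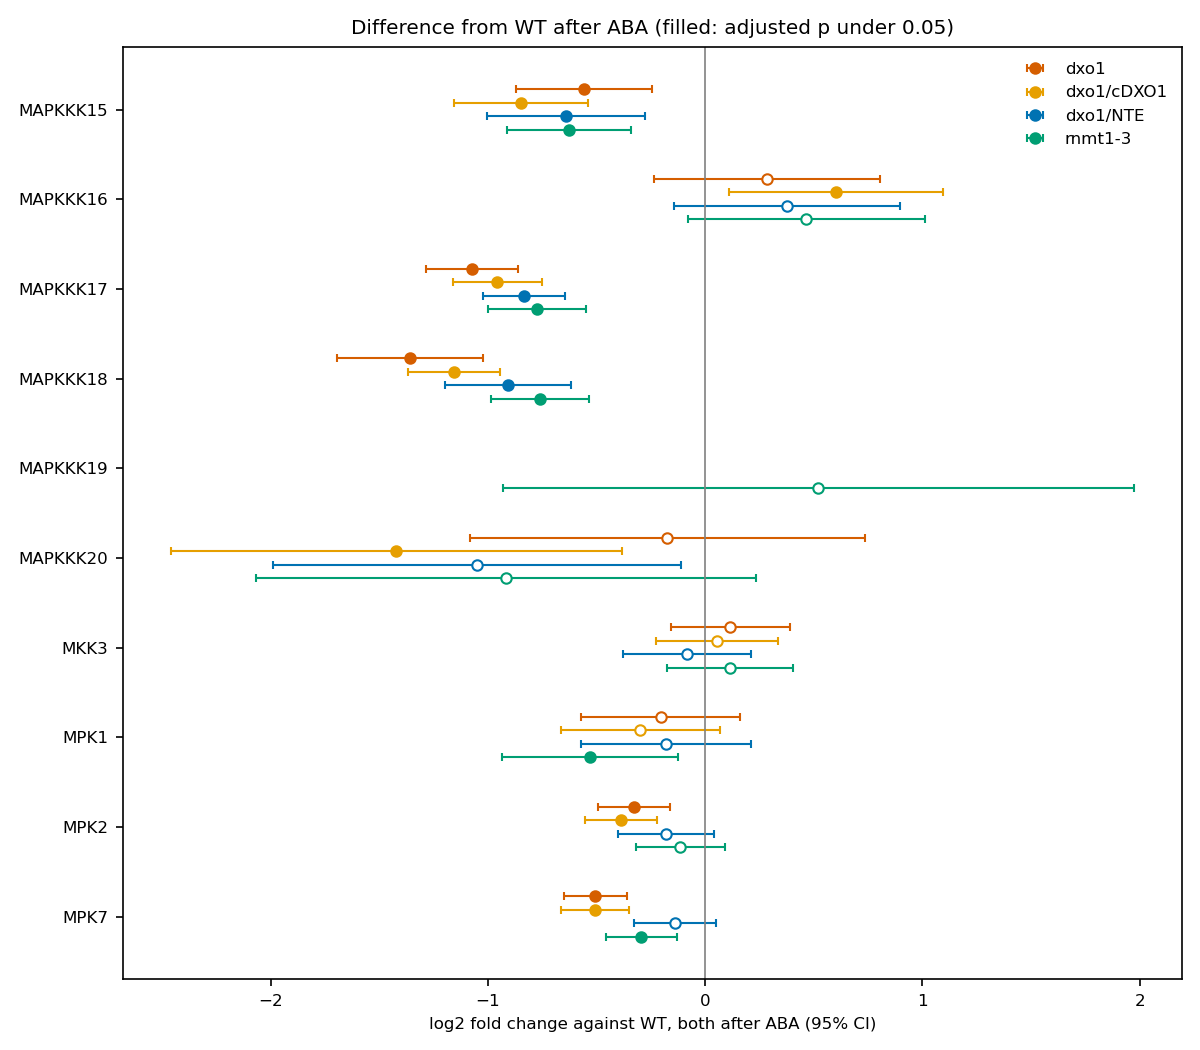
Log2 fold change of each cascade gene against WT, both after ABA (x axis), with its 95% confidence interval, by genotype (colour); filled points passed an adjusted p of 0.05 in edgeR. MAPKKK15, MAPKKK17 and MAPKKK18 lie left of 0 for the 4 genotypes, MPK2 and MPK7 lie furthest left in dxo1 and dxo1/cDXO1, and MKK3 lies around 0.

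In counts, 5 of 9 tested cascade genes were lower than WT after ABA in dxo1 (21.2% of all tested genes were lower), 6 of 9 were lower and 1 higher in dxo1/cDXO1 (21.8% and 23.6%), 3 of 9 were lower in dxo1/NTE (3.38%) and 5 of 10 were lower in rnmt1-3 (16.6%). Over all tested genes 43.7% were called in dxo1 and 45.4% in dxo1/cDXO1 in either direction, so a call by itself sets a gene little apart there. The hypoxia list moved with these groups: after ABA its sum was 411 to 1078 CPM in WT, 309 to 639 in dxo1/NTE (1 of its 8 genes called lower), 201 to 291 in rnmt1-3 (5 lower), 158 to 198 in dxo1 (4 lower) and 124 to 143 in dxo1/cDXO1 (4 lower). The guard cell list summed to 33.2 to 39.6 CPM in WT, 28.6 to 33.7 in dxo1/NTE, 39.8 to 45.3 in rnmt1-3, 42.8 to 47.3 in dxo1 and 47.5 to 54.4 in dxo1/cDXO1, but its members moved in both directions: of 4 genes 1 was higher and 2 lower in dxo1 (MYB60 at 1.72 and FAMA at -0.61 on the log2 scale), 1 higher and 1 lower in dxo1/cDXO1, and 1 higher and 2 lower in rnmt1-3. The root list summed to 31.9 to 34.96 CPM in WT, 38.03 to 41.7 in dxo1 (2 of 3 genes called higher), 34.3 to 41.8 in dxo1/cDXO1 and 34.5 to 42.9 in dxo1/NTE (0 called in each), and 23.8 to 29.1 in rnmt1-3 (1 called lower). Of 3 shoot genes 1, LHCB2.1, was called higher in dxo1 (2.28 on the log2 scale), with a list median of 0.12 and a sum of 16560 to 17450 CPM inside the WT range of 15610 to 18750 CPM. In dxo1/cDXO1 the shoot sum was 19530 to 20620 CPM, above WT without overlap, with 2 of 3 genes called higher. It was 18410 to 20000 CPM in rnmt1-3 and 15700 to 18170 CPM in dxo1/NTE, with 1 gene called higher in each. Of 8 touch genes 3 were called higher in dxo1. In dxo1/cDXO1 2 were higher and 1 lower, in rnmt1-3 1 was higher and 1 lower, and in dxo1/NTE 0 were called. The part of these lists in the kinase levels was not tested.

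Without ABA fewer cascade genes were called against WT in the main fit, and these were MPK2 and MPK7. WT mock had the widest spread, and without its replicate 1 other cascade genes were called as well, as given below. MPK7 stood at 14.9, 13.5 and 14.4 CPM in dxo1 mock and 15.8, 13.5 and 13.8 CPM in dxo1/cDXO1 mock, below the WT libraries at 20.7, 21.9 and 23.1 CPM. The log2 fold change was -0.61 (SE 0.11, edgeR adjusted p = 0.00645) and -0.59 (SE 0.122, adjusted p = 0.00981), and the latter call was lost without dxo1/cDXO1 mock replicate 2 (adjusted p = 0.0588). MPK2 was lower in dxo1 (log2 fold change -0.42, adjusted p = 0.0373) and dxo1/cDXO1 (-0.56, adjusted p = 0.0163), calls that were lost in 5 and 4 of 6 fits that left out a library. In dxo1/NTE mock, MPK7 (19.5 to 21.9 CPM, log2 fold change -0.07, 95% confidence interval -0.334 to 0.185) and MPK2 (35.6 to 39.6 CPM, -0.04, -0.321 to 0.233) overlapped WT. In rnmt1-3 mock, MPK7 was at 16.6 to 21.3 CPM (log2 fold change -0.19, 95% confidence interval -0.481 to 0.0962).

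In counts, 2 of 10 tested cascade genes were lower in dxo1 mock and 2 of 10 in dxo1/cDXO1 mock, against 11.8% and 11.4% of all tested genes, and none was called in dxo1/NTE (of 8) or rnmt1-3 (of 10), where 1.6% and 18.8% of all genes were called in either direction. For the 2 counts of 0, edgeR gave 1 gene (MAPKKK17 in dxo1/NTE) and 0 genes at an unadjusted p under 0.05, and DESeq2 called 0 in each. MAPKKK17 mock levels were 1.51 to 2.13 CPM as means of the 4 genotypes and 3.00 ± 1.33 CPM in WT, and its log2 fold change from WT mock was -0.98 in dxo1/NTE, -0.67 in dxo1, -0.64 in dxo1/cDXO1 and -0.49 in rnmt1-3, none of them called. In the fit of all 30 libraries it was called in dxo1/NTE, dxo1 and dxo1/cDXO1 (edgeR adjusted p = 0.0047, 0.022 and 0.0268), and without WT mock replicate 1 it was not called and the values were -0.57, -0.26, -0.23 and -0.08 in the order above. Leaving out WT mock replicate 1 changed this picture: the share of all tested genes called was then 14.1% for dxo1/NTE, 36.8% for rnmt1-3, 40.1% for dxo1/cDXO1 and 43.7% for dxo1. The cascade calls then numbered 4 in dxo1 (MAPKKK15 higher; MPK1, MPK2 and MPK7 lower), 4 in dxo1/cDXO1 (MAPKKK19 higher; MPK1, MPK2 and MPK7 lower), 3 in rnmt1-3 (MAPKKK15 higher; MPK1 and MPK2 lower) and 0 in dxo1/NTE. MAPKKK15 mock levels then differed from WT by a log2 fold change of 1.28 in dxo1 (edgeR adjusted p = 0.0176) and 1.36 in rnmt1-3 (adjusted p = 0.0398).

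Marker lists moved under mock as well. Of 8 hypoxia genes 5 were called lower in dxo1/cDXO1, 4 in rnmt1-3, 2 in dxo1/NTE and 1 in dxo1, with sums of 605 to 2785 CPM in WT, 159 to 1193 in dxo1, 100.4 to 705 for dxo1/cDXO1, 425 to 1942 for dxo1/NTE and 176 to 915 for rnmt1-3. The root list summed to 33.1 to 38.4 CPM in WT, and without overlap to 42.7 to 49.8 in dxo1, 41.8 to 46.7 for dxo1/cDXO1 and 44.3 to 48.7 for dxo1/NTE (1 of 3 genes called higher in each), against 30.4 to 34.7 for rnmt1-3. The guard cell list summed to 42.6 to 64.7 CPM in WT and 67.3 to 72.9 CPM in dxo1, where 1 of its 4 genes was higher and 1 lower. It was also above WT without overlap in dxo1/cDXO1 (72.6 to 83.7) and rnmt1-3 (65.7 to 68.1), with 1 gene called higher in each. In dxo1/NTE it lay inside the WT range (49.4 to 55.9), with 0 genes called. The shoot list summed to 17880 to 20060 CPM in WT. It was lower without overlap in dxo1 (15230 to 15540) and dxo1/NTE (16300 to 16880). In dxo1/cDXO1 (16890 to 20210) and rnmt1-3 (17820 to 20140) it overlapped WT. Of its 3 genes 1 was called higher and 1 lower in dxo1, and 0 in dxo1/NTE. The part of these lists in the MPK levels was not tested.

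The transgenic lines were also set against dxo1 itself. MPK7 was higher in dxo1/NTE than in dxo1, by 0.53 on the log2 scale under mock (SE 0.096, edgeR adjusted p = 0.00119) and by 0.37 after ABA (SE 0.085, adjusted p = 0.00333), without overlap, and both calls held when any library was left out. MPK2 was higher by 0.38 under mock (adjusted p = 0.00373), again without overlap. MAPKKK18 after ABA was called higher by 0.45 (adjusted p = 0.04995), but its libraries (20.9 to 30.4 CPM) overlapped those of dxo1 (13.8 to 23.4 CPM) and the call was lost in DESeq2, in the fit of all 30 libraries and in 3 of 6 fits that left out a library. MAPKKK17 gave 0.25 (95% confidence interval 0.0229 to 0.468, adjusted p = 0.0802), and MAPKKK15 -0.08 (-0.467 to 0.308). These are 2 of 9 tested cascade genes higher under mock, where 14.8% of all genes were, and 2 of 8 after ABA, where 17.2% were.

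No cascade gene was called between dxo1/cDXO1 and dxo1, of 9 tested under mock and 8 after ABA, where 0.857% and 6.1% of all tested genes were called. At an unadjusted p under 0.05 edgeR also gave 0 in each, as did DESeq2. The intervals of the log2 fold change after ABA were -0.118 to 0.334 for MAPKKK17, -0.0948 to 0.483 for MAPKKK18 and -0.163 to 0.139 for MPK7. MAPKKK18 passed the threshold without dxo1 ABA replicate 3, its highest dxo1 library (log2 fold change 0.45, adjusted p = 0.0217). Under mock the replicate numbers of these groups paired their libraries, and with the number as a block 1259 of 20078 genes were called in place of 172, but still no cascade gene.

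Whether the response to ABA itself differed from that of WT was tested as the interaction of genotype and ABA over 12 libraries. No cascade gene passed in any of the 4 tests, where 0.272% (dxo1), 0.233% (dxo1/cDXO1), 0% (dxo1/NTE) and 0.126% (rnmt1-3) of all tested genes did. At an unadjusted p under 0.05 edgeR gave 1, 2, 2 and 1 genes, and DESeq2 called 1, 0, 0 and 0 after adjustment. MAPKKK15 had the smallest p of the cascade genes in dxo1, dxo1/cDXO1 and rnmt1-3, and MKK3 in dxo1/NTE (log2 value -0.48, adjusted p = 0.411). For MAPKKK15 the interaction was a log2 value of -1.30 in dxo1 (SE 0.379, edgeR adjusted p = 0.239), -1.14 in dxo1/cDXO1 (adjusted p = 0.358), -0.94 in dxo1/NTE (adjusted p = 0.42) and -1.47 in rnmt1-3 (adjusted p = 0.389), and DESeq2 called it in dxo1 (adjusted p = 0.0466; 0.0466 to 0.237 over the 5 settings other than leaving out a library). Without WT mock replicate 1 edgeR called it in dxo1 (-1.88, adjusted p = 0.00725), dxo1/cDXO1 (-1.67, adjusted p = 0.0206) and rnmt1-3 (-1.997, adjusted p = 0.0297), where 1.84%, 1.61% and 0.973% of all genes were then called.

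For MAPKKK18 the interaction was -0.85 with dxo1 (95% confidence interval -1.85 to 0.155), -0.93 with dxo1/cDXO1 (-2.09 to 0.229), 0.04 with dxo1/NTE (-0.743 to 0.831) and -0.70 with rnmt1-3 (-1.48 to 0.0794). For MAPKKK17 it was -0.39 (-1.08 to 0.301), -0.34 (-1.02 to 0.344), 0.13 (-0.519 to 0.788) and -0.29 (-1.01 to 0.434) in the same order. Without WT mock replicate 1 the MAPKKK17 values became -0.84 (unadjusted p = 0.00274, edgeR adjusted p = 0.0925), -0.75 (0.0062, adjusted p = 0.151), -0.27 (0.258, adjusted p = 0.62) and -0.70 (0.0192, adjusted p = 0.325), none of them called. MPK7, which was lower in dxo1 with and without ABA, gave 0.11 in dxo1 (-0.129 to 0.358) and 0.06 in dxo1/cDXO1 (-0.219 to 0.337). For these 3 genes the level after ABA was lower in dxo1 while no difference in fold response passed the threshold, and for MAPKKK17 the size of that difference depended on WT mock replicate 1. The mock levels of MAPKKK18, at 3 to 23 reads, leave its intervals wide.

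The study used an unadjusted p under 0.05 together with an absolute log2 value above 1, on results of DESeq2. Applied here to the edgeR fits, these thresholds call 7 cascade genes with ABA in dxo1/cDXO1 (7.34% of all tested genes pass) and 6 in each of WT (9.7%), dxo1 (7.07%), dxo1/NTE (8.57%) and rnmt1-3 (7.79%). Against WT mock they call 0 in each genotype (7.2%, 7.4%, 2.41% and 5.88% of all genes, in the order dxo1, dxo1/cDXO1, dxo1/NTE, rnmt1-3), and against WT after ABA 2, 2, 1 and 0 (7.33%, 8%, 1.73% and 5.68%). Against dxo1 they call 0 for dxo1/NTE (3.53% mock, 3.26% ABA) and 0 for dxo1/cDXO1 (0.777% and 0.923%), and for the interactions 1, 2, 0 and 1 (1.82%, 2.03%, 1.9% and 1.67%). MAPKKK17 and MAPKKK18 are the cascade genes that pass against WT after ABA in dxo1. In dxo1/cDXO1 they are MAPKKK18 and MAPKKK20, and in dxo1/NTE the gene is MAPKKK20. After ABA MAPKKK20 held 3 to 7 reads a library in dxo1/cDXO1 and 6 to 9 in dxo1/NTE.

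The neighbours of the cascade were read from lists of the kinase families and of the phosphatases, and per list and contrast the 2 called genes with the largest change are named. Clade A PP2C genes rose with ABA in every genotype: 8 of 8 tested in WT, dxo1, dxo1/cDXO1 and rnmt1-3 and 9 of 9 in dxo1/NTE, led in WT by HAI1 (log2 fold change 8.46) and HAI3 (8.40). The share of all tested genes that were higher ran from 10% in WT to 15.4% in dxo1/NTE. After ABA 7 of 8 were lower than WT in dxo1, with HAI3 at -0.84 and ABI1 at -0.69, 7 of 8 in dxo1/cDXO1, 3 of 9 in dxo1/NTE and 4 of 8 in rnmt1-3. Of all tested genes 21.2%, 21.8%, 3.38% and 16.6% were lower in the same order. The median log2 fold change of the PP2C genes against WT was -0.59, -0.56, -0.20 and -0.21. Of 14 other MAPKKK genes 13 were tested, and 1 of them, MAPKKK13 of the same clade, rose with ABA in WT (log2 fold change 1.49, edgeR adjusted p = 0.000578), where 10% of all tested genes did. MAPKKK14, the remaining kinase of the clade, was higher than WT under mock in dxo1 (1.32, adjusted p = 0.000846) and dxo1/cDXO1 (1.31, adjusted p = 0.000349), as was MAPKKK13 (1.31 and 1.44), and both were lower in dxo1/NTE than in dxo1 under mock (-1.16 and -1.04).

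Among other MPK genes, 4 of 15 tested rose with ABA in WT and 1 fell, led by MPK11 (log2 fold change 2.80) and MPK5 (1.13), where 10% of all tested genes rose and 6.47% fell. MPK14, the fourth group C kinase, was higher in dxo1 than in WT after ABA (1.51, edgeR adjusted p = 0.0121). MPK12, a kinase of guard cells, was higher than WT in mock dxo1 (0.68) and dxo1/cDXO1 (0.87), where of the 4 guard cell genes MYB60 was higher (1.32 and 1.37) and FAMA was lower in dxo1 (-0.53). Other MKK genes gave 0 calls of 6 tested and MAPK phosphatases 0 of 7 with ABA in WT, where 16.5% of all tested genes were called. In dxo1 after ABA 1 of 6 and 1 of 7 were lower than in WT: MKK1 at -0.39 and MKP1, a phosphatase of MPK3 and MPK6, at -0.24. Of all tested genes 21.2% were lower there, so these calls do not set the lists apart.

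Genes with the pattern most like MAPKKK17 and MAPKKK18 were sought over the 10 group means, by Pearson's r of log2(CPM + 1) among the 19068 genes that averaged 1 CPM or more. This is a description over groups that share treatments, with no test. For MAPKKK17 the nearest were AT5G20700 (r = 0.997), MAPKKK18 (0.997), NAC080 (0.996), HIS1-3 (0.995), a linker histone made under drought, and KCS2 (0.995), an enzyme of very-long-chain fatty acid synthesis. For MAPKKK18 they were MYB49 (0.999), UGE5 (0.998), AT5G03190 (0.998), AIRP1 (0.997), a ubiquitin ligase of ABA responses, and AT2G23790 (0.997), with MAPKKK17 at rank 8. The group means of MAPKKK17 and MAPKKK18 stood in the same order in all 10 groups (Spearman's rho = 1). MAPKKK15 ranked 214 and 175, MPK7 479 and 589, and MKK3 1884 and 1644 against MAPKKK17 and MAPKKK18. With r over the 30 libraries or with Spearman's rho in its place, 1 or 0 of the 5 nearest genes recurred. MAPKKK18 recurred for MAPKKK17 with both measures, and MYB49 for MAPKKK18 with r over the libraries. By rho MYB49 (0.988) tied with genes that were counted among the 5 nearest to MAPKKK18. The other names depend on the measure.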

How the data were processed

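RNA of 30 seedling libraries (10 groups of 3) was measured as read counts per gene. The deposited counts are whole numbers that the authors made with FastQC 0.11.8, HISAT2 2.2.1 on TAIR10 and featureCounts of Subread 2.0.8; the annotation version, strand setting and handling of multi-mapping reads are not given in the sources used here. The table also gives a gene length, used for CPM per kb; 32370 of 32548 lengths matched TAIR10.1.

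Counts were tested with edgeR 4.0.16 (quasi-likelihood, TMM, R 4.3.3) in 21 contrasts of 6 libraries, or 12 for interactions, after filterByExpr (minimum count 10, total 15). P-values were adjusted by Benjamini-Hochberg over all tested genes, and an adjusted p under 0.05 was a call. SE was derived from the F statistic, and intervals are 95%. CPM values use TMM over 30 libraries. The study describes its replicates as biological, but the labels do not name separate cultures, so p-values measure the spread between these libraries. The script was tested on simulated data. Promoters were read from the RefSeq TAIR10.1 genome with Python 3.11.15, and transcripts were aligned with Biopython 1.88.

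The cascade genes are all named; of other lists the 2 called genes with the largest change per contrast, and for likeness the 5 genes with the highest r. Members and lists were chosen with earlier results of these data known. Alternatives were RLE normalization, no low-count filter, the replicate number as a block, DESeq2 1.42.0, a fit of all 30 libraries, the study's thresholds on the edgeR fits, and leaving out each library.

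Replicate numbers were taken to pair libraries where all 3 correlations of same-numbered deviations exceeded 0.1, which held for 4 of 45 pairs of groups. Among the contrasts these were dxo1/NTE against WT mock (0.121, 0.117 and 0.109) and dxo1/cDXO1 against dxo1 mock (0.218, 0.231 and 0.359).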

Additional observations from a re-analysis of the deposited data

How the results depend on the processing

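Of 60 calls of cascade genes, 307 of 360 fits that left out a library kept the call, 53 lost it and 0 reversed it; 284 of 300 fits under other settings kept it and 16 lost it. The number of cascade genes called without 1 library ranged from 5 to 6 (WT), 5 to 7 (dxo1), 7 to 7 (dxo1/cDXO1), 5 to 6 (dxo1/NTE) and 5 to 6 (rnmt1-3) for ABA against mock. Against WT mock it ranged from 1 to 4 (dxo1), 0 to 4 (dxo1/cDXO1), 0 to 0 (dxo1/NTE) and 0 to 3 (rnmt1-3), with the values of 4, 4 and 3 reached without WT mock replicate 1, and against WT after ABA from 5 to 5, 5 to 7, 2 to 3 and 3 to 6. Against dxo1 it was 2 to 3 (dxo1/NTE mock), 0 to 0 (dxo1/cDXO1 mock), 1 to 2 (dxo1/NTE, ABA) and 0 to 1 (dxo1/cDXO1, ABA), and for the interactions 0 to 1, 0 to 1, 0 to 0 and 0 to 1.

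With the replicate block 1 cascade gene in place of 2 was called in dxo1 against WT mock (MPK2 lost, adjusted p = 0.0561). The block also lost MKK3 in WT with ABA and MAPKKK16 in dxo1/cDXO1 against WT after ABA and added MAPKKK17 in dxo1/NTE against dxo1 after ABA (adjusted p = 0.0497); where the numbers paired the libraries it changed no call of a cascade gene. In the fit of all 30 libraries, which shares 1 estimate of spread, the cascade genes called against WT mock were 3 in dxo1 (MAPKKK17, MPK2, MPK7), 4 in dxo1/cDXO1 (these and MPK1), 2 for dxo1/NTE (MAPKKK17, MKK3) and 2 for rnmt1-3 (MAPKKK15, MPK1), among 8793, 8946, 4376 and 7968 of 21147 genes. DESeq2 and that fit each called 1 in dxo1/NTE against dxo1 after ABA, and DESeq2 called 1 in the dxo1 interaction. With the study's thresholds applied to the edgeR fits the counts were 0 and 0 for dxo1 and dxo1/cDXO1 against WT mock, 2, 2, 1 and 0 against WT after ABA, 0 and 0 for dxo1/NTE against dxo1 without and with ABA, and 1, 2 and 1 for the interactions of dxo1, dxo1/cDXO1 and rnmt1-3. The cause of these shifts was not tested.

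Directions reversed only for differences that were not called, when 1 library was left out. The log2 values then ranged from -0.148 to 0.0312 for MPK2 in dxo1/NTE against WT mock, from -0.0606 to 0.0551 (mock) and -0.0521 to 0.0463 (ABA) for MPK7 in dxo1/cDXO1 against dxo1, and from -0.288 to 0.0667 for MAPKKK15 in dxo1/NTE against dxo1 after ABA. Interactions ranged from -1.38 to 0.174 (MAPKKK18, dxo1/cDXO1), -0.269 to 0.373 (MAPKKK17, dxo1/NTE), -0.285 to 0.280 (MAPKKK18, dxo1/NTE) and -0.122 to 0.0209 (MPK7, dxo1/NTE). The low counts of MAPKKK19, MAPKKK20 and mock MAPKKK18 limit the precision of their ratios.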
